A study of Homo sapiens with 14 samples.

Results

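The genes examined here are those whose symbol starts with SNRP, SF3A, SF3B, PRPF or LSM followed by a letter or digit, a name rule that collects the core proteins of the spliceosome. In the knockout screens it found 49 of 19114 targeted genes, with 196 of 76441 targeting guides. In the activation screens it found 48 of 18886 genes, with 141 of 56266 guides; SNRPN was not among them. The rule used symbols and no measured value. It also took in genes outside splicing: LSM1, LSM10, LSM11, LSM12, LSM14A, LSM14B, LSMEM1 and LSMEM2. Their values in untreated knockout growth are described apart from the others, but every count and median over the members includes them. The genes SNRNP70 and SNRNP200 carry another prefix and were counted with the rest of the spliceosome.

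RKO and SW620, both established human cell lines from colorectal cancer, were screened with pools of CRISPR guides, and each guide's abundance was counted in genomic DNA. Cells carried Cas9 with the Brunello knockout library, or dCas9-VP64, a Cas9 that does not cut and recruits an activator, with the Calabrese activation library, and all groups had been selected with blasticidin and puromycin. The groups were untreated cells at day 0, untreated cells at day 20 and cells given oxaliplatin until day 20, at 1.9 µM in RKO and at 0.38 or 0.5 µM in SW620. Each of the 14 groups was 1 library without a replicate, so a fold within a line has no replicate check and is given as a size with no p-value. The only tests take the 2 lines as replicates, and the oxaliplatin test also pools the SW620 doses. Libraries held between 3647823 and 69526489 counts, with a median of 21 to 987 counts per guide. In libraries with drug the most abundant 1% of guides took up a larger share, 41.4% in oxaliplatin RKO knockout cells, 52.8% in oxaliplatin RKO activation cells and 9.55 and 31.5% in SW620 knockout cells at 0.38 and 0.5 µM, against 2.16 to 3.88% in the libraries without drug. In SW620 activation cells with drug it was 7.2% at 0.38 µM and 10.2% at 0.5 µM, smaller than in SW620 knockout cells at the same dose.

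The spliceosome removes introns from pre-mRNA. It is built from small nuclear ribonucleoproteins (snRNPs) named after their RNAs, U1, U2, U4, U5 and U6. Sm proteins, encoded by SNRPB, SNRPD1, SNRPD2, SNRPD3, SNRPE, SNRPF and SNRPG, form a ring around most of these RNAs, while LSM2 to LSM8 form the ring on U6. The U1 snRNP recognises the start of an intron and the U2 snRNP, with its SF3A and SF3B parts, recognises the branch point near its end; the U4/U6.U5 tri-snRNP then joins, and the complex is rearranged to carry out the cleavage and joining steps. Most cell types need this machinery to divide, and guides against such genes are lost from a growing culture.

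Without drug, guides against the core spliceosome were strongly lost between day 0 and day 20 in RKO and mildly lost in SW620. Counts were scaled between libraries by median-ratio size factors, the log2 fold of each guide was taken with 5 added to each scaled count, and a gene's value is the median over its guides. In RKO 39 of 49 genes were lower by a log2 of 1 or more, against 11.6% of all genes, and no gene was higher by that much (0% of all genes). In SW620 5 of 49 genes were lower by that much, against 1.20% of all genes, and none was higher (0%). The median over the members was -2.69 in RKO and -0.45 in SW620, beside 0.09 and 0.04 over all genes. By rank the lines were closer: the middle member stood at the 5.16th percentile from the lowest gene in RKO and at the 7.17th in SW620. Single non-targeting guides lay between 0.00 and 0.90 in RKO and between -0.07 and 0.58 in SW620 (5th to 95th percentile), all log2 folds.

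**Figure D1:**
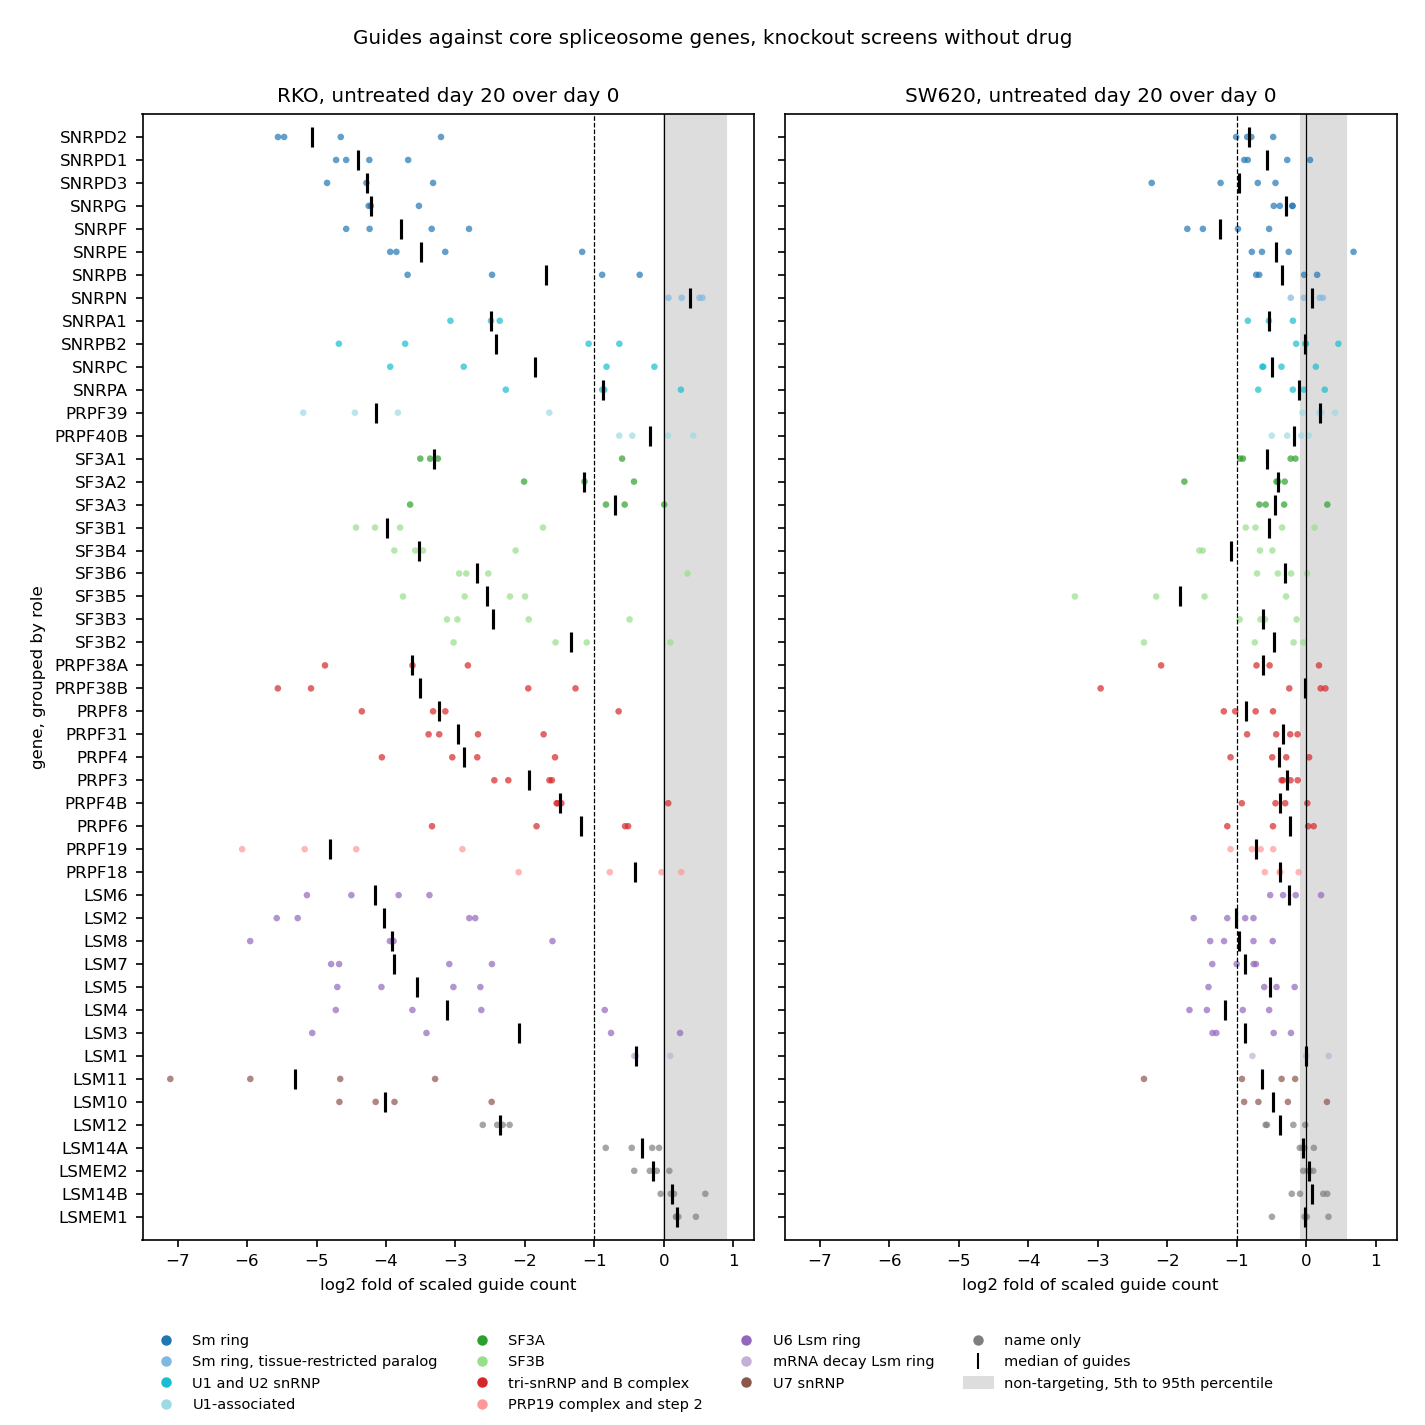
Log2 fold of the scaled count of each guide, untreated day 20 over day 0, for 48 of the 49 genes in RKO (left) and SW620 (right). Dots are guides coloured by role, black bars are the gene medians, the dashed line marks a log2 fold of -1, and the grey band spans non-targeting guides between their 5th and 95th percentiles; most dots lie left of the dashed line in RKO and right of it in SW620.

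In RKO all 7 genes of the Sm ring were lower by a log2 of 1 or more, with a group median of -4.22. SNRPD2 was its lowest gene in RKO: its guides had 8.02, 0, 0 and 0 scaled counts at day 20, against 322, 230, 216 and 41.2 at day 0, a median log2 fold of -5.06. The 3 guides at 0 were at least 18.8-fold to 105-fold lower, against a floor of 3 counts per library. In SW620 the same guides had 860, 282, 350 and 90.5 scaled counts at day 20, against 1197, 491, 709 and 167 at day 0, a median of -0.82, so every guide was lower in both lines but by far more in RKO. The highest RKO value of the ring was that of SNRPB, at -1.69, where 2 of 4 guides were lower by 1 or more. Its guides had 32.1, 136, 321 and 10.2 scaled counts at day 20 in RKO, against 201, 256, 410 and 191 at day 0, so they disagreed widely on how much was lost.

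The other Sm genes in RKO were SNRPD1 at -4.40, SNRPD3 at -4.28, SNRPG at -4.22, SNRPF at -3.79 and SNRPE at -3.50. All 3 tested SNRPD3 guides were at 0 counts at day 20 in RKO, so its median depends on the 5 added counts; with 3 counts in place of 0 it was -3.76. In SW620 SNRPF was the lowest Sm gene at -1.24, with 212, 354, 185 and 66.2 scaled counts at day 20, against 603, 704, 270 and 228 at day 0. SNRPG was the highest there at -0.29, with 137, 435, 496 and 215 at day 20, against 158, 603, 647 and 247 at day 0. The order within the ring was thus not shared: SNRPG lay near the bottom of all genes in RKO, at the 1.22nd percentile, and at the 12.2nd in SW620. SNRPN encodes a close relative of the SNRPB protein that is made mainly in brain. Its 4 guides had 1015, 755, 837 and 822 scaled counts at day 20 in RKO, against 689, 721, 700 and 575 at day 0, a median of 0.38, the highest of the 49 genes; in SW620 the median was 0.08. Whether guides for SNRPB and SNRPN cut each other's gene was not tested.

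Proteins particular to U1 and U2 were less uniform. Of the 4 genes, SNRPA1 (U2) at -2.49, SNRPB2 (U2) at -2.41 and SNRPC (U1) at -1.85 were lower by 1 or more in RKO, and SNRPA (U1) was at -0.87. In SW620 none was, with values of -0.54 for SNRPA1, -0.49 for SNRPC, -0.11 for SNRPA and -0.01 for SNRPB2. SNRPA1 was lowest in both lines: its 3 tested guides had 5.83, 9.47 and 9.47 scaled counts at day 20 in RKO, against 86.1, 69.4 and 76.2 at day 0. In SW620 these guides had 264, 123 and 137 at day 20, against 302, 224 and 201 at day 0. SNRPA rested on discordant guides in RKO, with 54.7, 206, 65.6 and 53.9 at day 20, against 284, 173, 123 and 104 at day 0, so 1 guide was even higher. SNRPB2 guides showed no loss in SW620, with 453, 250, 352 and 63.8 at day 20, against 501, 252, 353 and 44.9 at day 0.

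Among the proteins that associate with U1, in roles known best from yeast, PRPF39 was near the bottom of all genes in RKO and showed no loss in SW620. Its guides had 13.1, 135, 43 and 10.9 scaled counts at day 20 in RKO, against 656, 434, 677 and 342 at day 0, a median of -4.14 with all 4 guides lower by 1 or more. In SW620 they had 1269, 672, 1447 and 624 at day 20, against 1114, 697, 1083 and 535 at day 0, a median of 0.20, the highest of the 49 genes in that line. PRPF40B was at -0.20 in RKO and -0.17 in SW620, and no PRPF40B guide was lower by 1 or more in either line.

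The SF3A and SF3B complexes hold the U2 snRNP at the branch point. All 6 SF3B genes were lower by 1 or more in RKO, and 2 of 3 SF3A genes. SF3B1, the large subunit that contacts the branch point region, was the lowest in RKO at -3.98, with 11.7, 10.9, 5.1 and 47.4 scaled counts at day 20, against 293, 216, 213 and 170 at day 0. In SW620 SF3B1 was at -0.54. SF3B4 was at -3.52 in RKO and -1.08 in SW620, SF3B6 at -2.69 and -0.31, SF3B3 at -2.46 and -0.62, and SF3B2 at -1.33 and -0.46. SF3B2 was the highest in RKO, with 6.56, 76.5, 351 and 36.4 scaled counts at day 20, against 89.2, 171, 329 and 117 at day 0, and 1 of its guides was not lost.

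SF3B5, a small subunit, was the lowest of all 49 genes in SW620. Its guides there had 97.8, 665, 131 and 15.3 scaled counts at day 20, against 454, 814, 370 and 199 at day 0, a median of -1.81 at the 0.0942nd percentile of all genes, with 3 of 4 guides lower by 1 or more. In RKO its median was -2.54, a difference between the lines of -0.73. SF3B6 was the highest SF3B gene in SW620, with 708, 745, 725 and 199 at day 20, against 941, 738, 843 and 328 at day 0. SF3A1 was at -3.31 in RKO and -0.56 in SW620, SF3A2 at -1.15 and -0.41, and SF3A3 at -0.70 and -0.45. The SF3A3 median in RKO came from 1 guide at 2.91 scaled counts at day 20, against 94.5 at day 0, and 3 guides at 320, 72.1 and 105, against 319, 109 and 191.

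All 8 genes of the tri-snRNP and the B complex that it forms were lower by 1 or more in RKO and none was in SW620. PRPF38A, which joins the complex before activation, was the lowest in RKO at -3.62: its 3 tested guides had 0, 3.64 and 17.5 scaled counts at day 20, against 56.4, 249 and 154 at day 0. PRPF8, the scaffold at the catalytic centre, was at -3.23 in RKO and was the lowest of the group in SW620 at -0.87. The SW620 guides of PRPF8 had 203, 174, 83.2 and 148 at day 20, against 417, 402, 141 and 208 at day 0, so all 4 were lower. PRPF31 and PRPF6, which bridge the U4/U6 and U5 parts, were at -2.96 and -1.19 in RKO, and at -0.33 and -0.23 in SW620. PRPF4 and PRPF3, bound to U4/U6, were at -2.87 and -1.94 in RKO and at -0.39 and -0.28 in SW620, and the kinase PRPF4B was at -1.50 and -0.37. PRPF6 was the highest in RKO, with 13.8, 107, 95.5 and 24 scaled counts at day 20, against 185, 155, 143 and 98.3 at day 0.

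PRPF38B, a relative of PRPF38A, had nearly the same value in RKO, -3.51, but -0.02 in SW620, beside -0.62 for PRPF38A. Its guides had 224, 0, 21.1 and 1.46 scaled counts at day 20 in RKO, against 548, 164, 96 and 299 at day 0. In SW620 they had 789, 337, 184 and 57.4 at day 20, against 935, 291, 151 and 480 at day 0, so 1 guide was lost there and 3 were not.

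PRPF19, a ubiquitin ligase that helps activate the spliceosome, was lost in RKO to a median of -4.80, with 0, 1.46, 0 and 22.6 scaled counts at day 20, against 175, 134, 331 and 201 at day 0. In SW620 it was at -0.72, with 251, 321, 364 and 263 at day 20, against 435, 448, 576 and 565 at day 0. PRPF18, which acts at the second step of splicing, was the weakest of the genes with a splicing role apart from SNRPN and PRPF40B in RKO. Its RKO median was -0.41, with 322, 32.1, 205 and 27.7 at day 20, against 270, 153, 210 and 51.1 at day 0. In SW620 PRPF18 was at -0.38, so the lines differed by -0.03 only.

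The U6 Lsm ring was lost in RKO as a whole, with all 7 genes lower by 1 or more and a median of -3.88, and had the lowest median of the larger groups in SW620, -0.88. LSM6 was lowest in RKO at -4.16, with 0, 4.37, 0 and 6.56 scaled counts at day 20, against 171, 92.2, 108 and 158 at day 0. The same gene was the highest of the ring in SW620 at -0.24, with 245, 322, 192 and 285 at day 20, against 353, 358, 243 and 245 at day 0. LSM4 was lowest in SW620 at -1.17, with 152, 161, 358 and 165 at day 20, against 498, 442, 520 and 315 at day 0. LSM3 was the highest in RKO at -2.09, where its guides ranged from -5.06 to 0.23. LSM2 was at -4.03 in RKO and -1.01 in SW620, LSM8 at -3.92 and -0.97, LSM7 at -3.88 and -0.88, and LSM5 at -3.55 and -0.52.

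LSM8 and LSM1 take the same place in otherwise shared rings: with LSM8 the ring sits on U6 in the nucleus, and with LSM1 it acts in mRNA decay in the cytoplasm. LSM8 guides had 0.729, 3.64, 33.5 and 0 scaled counts at day 20 in RKO, against 80, 128, 112 and 305 at day 0. The 3 tested LSM1 guides had 95.5, 315 and 206, against 130, 418 and 193, a median of -0.40 in RKO, and LSM1 was at 0.00 in SW620. No LSM1 guide was lower by 1 or more in either line, beside 4 of 4 LSM8 guides in RKO and 2 of 4 in SW620. A 4th LSM1 guide had 0 counts in every knockout library and was not tested.

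LSM10 and LSM11 belong to the U7 snRNP, which cuts the ends of histone pre-mRNA and has no part in intron removal. LSM11 was the lowest of all 49 genes in RKO, at -5.31, with 24.8, 6.56, 0 and 14.6 scaled counts at day 20, against 287, 711, 683 and 490 at day 0. In SW620 it was at -0.64, with 230, 962, 951 and 197 at day 20, against 441, 1231, 1062 and 1014 at day 0, so 1 guide carried most of the loss. LSM10 was at -4.01 in RKO, with all 4 guides lower by 1 or more, and at -0.48 in SW620.

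Of the remaining genes outside splicing, LSM12 stood apart. Its guides had 83.1, 53.2, 69.2 and 78.7 scaled counts at day 20 in RKO, against 435, 302, 447 and 385 at day 0, a median of -2.36 with a narrow guide range, -2.61 to -2.22, beside a value of -0.37 in SW620. LSM14A and LSM14B, proteins of cytoplasmic mRNA granules, were at -0.31 and 0.12 in RKO, and at -0.04 and 0.08 in SW620. LSMEM2 and LSMEM1, membrane proteins, were at -0.15 and 0.19 in RKO, and at 0.04 and -0.01 in SW620.

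More member guides were past the threshold in RKO than in SW620, as were more guides of all genes. Of the 190 member guides tested in RKO, 136 (71.6%) were lower by a log2 of 1 or more, against 12.1% of targeting guides and 2 of 990 non-targeting guides. In SW620 32 of 194 member guides (16.5%) were, against 2.57% of targeting guides and 0 of 994 non-targeting guides. In RKO 21 of 49 genes (42.9%) had 4 guides lower by that much, against 5.48% of all genes, and in SW620 0 did, against 0.0995%. At day 20 34 of the tested member guides had 0 counts in RKO and 0 did in SW620; with 3 counts in place of 0 the RKO count stayed at 39 and the median at -2.69.

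Set gene by gene, RKO minus SW620, 35 of 49 genes were lower in RKO by a log2 of 1 or more, against 10.4% of all genes. No member was higher in RKO by that much, and few genes were at all, 25 of 19077. The median difference was -2.36 over the members and 0.02 over all genes. The largest differences were -4.67 for LSM11, -4.34 for PRPF39, -4.24 for SNRPD2, -4.08 for PRPF19, -3.93 for SNRPG and -3.92 for LSM6. Of the 49 genes 43 were below 0 in both lines (22.2% of all genes), and 5 (SF3B4, SF3B5, SNRPF, LSM2 and LSM4) were lower by 1 or more in both (1.10% of all genes). In both lines 29 members lay in the lowest 10% of genes, as did 6.43% of all genes. PRPF39, PRPF38B and SNRPB2 were in the lowest 10% in RKO and above the 30th percentile in SW620, limits chosen after the values had been seen, as were 1.46% of all genes. PRPF39, at 0.20 in SW620, lay on the other side of 0 there. Across the 49 genes Spearman's rho between the lines was 0.56, beside 0.34 across all genes; genes are not independent replicates, and both lines were screened with the same guides.

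**Figure D2:**
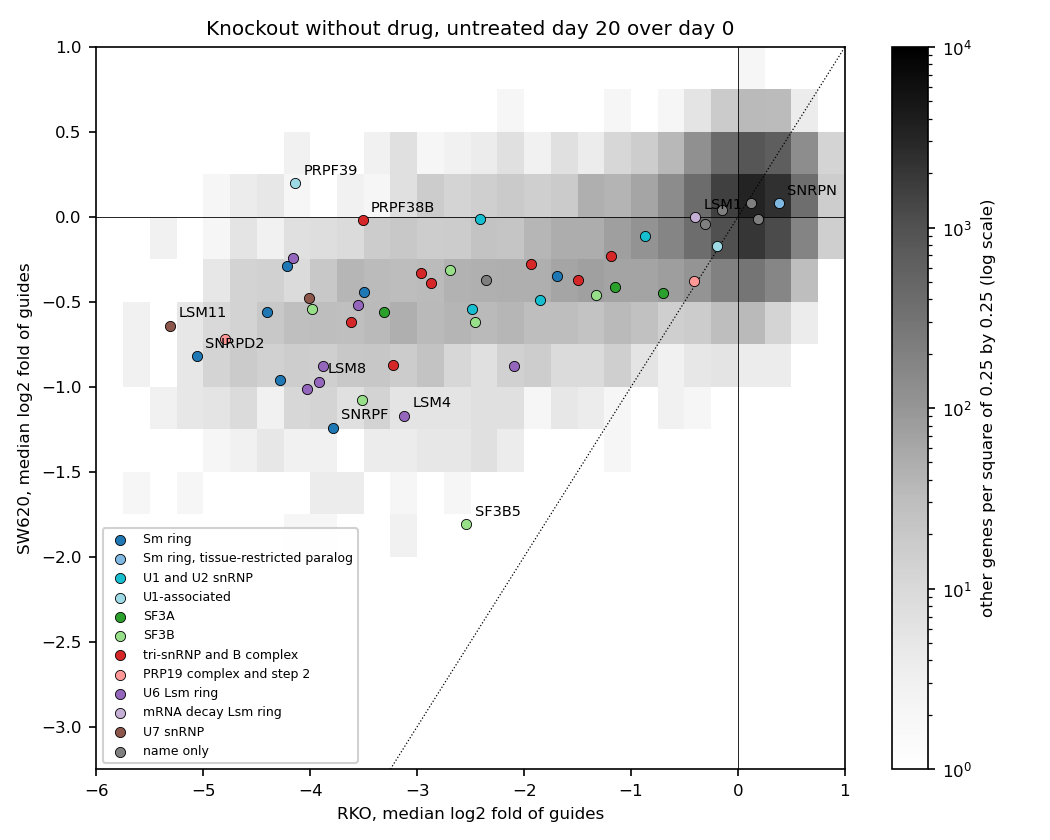
Median log2 fold of each gene's guides, untreated day 20 over day 0, in RKO (x axis) and SW620 (y axis). Coloured points are 48 of the 49 genes by role, grey squares count the other genes on a log scale, and the dotted line marks equal values; the points stretch to -5.31 in RKO and to -1.81 in SW620.

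The lines already differed at day 0. The same guides were counted in both lines, and the log2 ratio of the scaled day 0 counts, RKO over SW620, was centred on the other targeting guides. It had a median of -0.41 over 194 member guides and of 0.12 over the non-targeting guides. By this ratio 22.2% of member guides were lower by 1 or more in RKO, against 1.29% of the other targeting guides. The RKO folds over day 0 therefore start from counts that were lower relative to SW620. The part of that in the gap between the lines was not tested, and no count of the starting library was used here.

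A test over both lines called no guide. With the line as a block and the 2 lines as the replicates, edgeR's quasi-likelihood test with Benjamini-Hochberg adjustment over 75962 guides called 0 lower (0%) and 0 higher (0%) between day 20 and day 0, with 1 residual degree of freedom. At an unadjusted p below 0.05 it had 2227 guides lower and 528 higher, among them 21 of 194 member guides lower and 0 higher. DESeq2 on the same counts called 903 guides lower (1.19%) and 52 higher, among them 9 member guides lower and 0 higher. It also called 26 of 993 non-targeting guides higher and 0 lower, so its calls were not free of control guides.

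The rest of the spliceosome, from a list of factors without these prefixes, was also lower. In RKO 64 of 77 tested genes were lower by 1 or more with a median of -2.35, against 11.6% of all genes, and in SW620 6 of 78 were, with a median of -0.49, against 1.20% of all genes. The lowest were U2SURP at -5.30 and UBL5 at -5.14 in RKO, and SRSF2 at -1.53 and SRSF1 at -1.52 in SW620. The highest were CWC27 at -0.10 and SYF2 at -0.31 in RKO, and SYF2 at 0.37 and CWC27 at 0.25 in SW620.

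With oxaliplatin, which forms platinum crosslinks in DNA, most core spliceosome genes had lower guide counts than at day 0 in RKO, and so did many in SW620. In RKO at 1.9 µM 34 of 49 genes were lower than day 0 by a log2 of 1 or more, with a median of -1.88, against 16.9% of all genes, and 0 were higher (9.61%). In SW620 23 genes were lower at 0.38 µM, with a median of -0.83, against 10.5% of all genes, and 2 were higher (5.53%). At 0.5 µM 33 were lower, with a median of -1.62, against 31.1% of all genes, and 4 were higher (25.6%). These comparisons were added after the values had been seen, and they share their day 0 library with the untreated ones. The RKO median was nearer 0 with drug than without it (-1.88 beside -2.69), and in SW620 the median was -0.45 without drug, -0.83 at 0.38 µM and -1.62 at 0.5 µM. The spread of all genes widened as well, with a 5th percentile of -0.56, -1.48 and -2.76 in the same SW620 comparisons. By rank the middle member was nearer the centre with drug, at the 7.17th percentile without drug, the 13.4th at 0.38 µM and the 21.1st at 0.5 µM in SW620, and in RKO at the 7.2nd with drug and the 5.16th without.

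**Figure D3:**
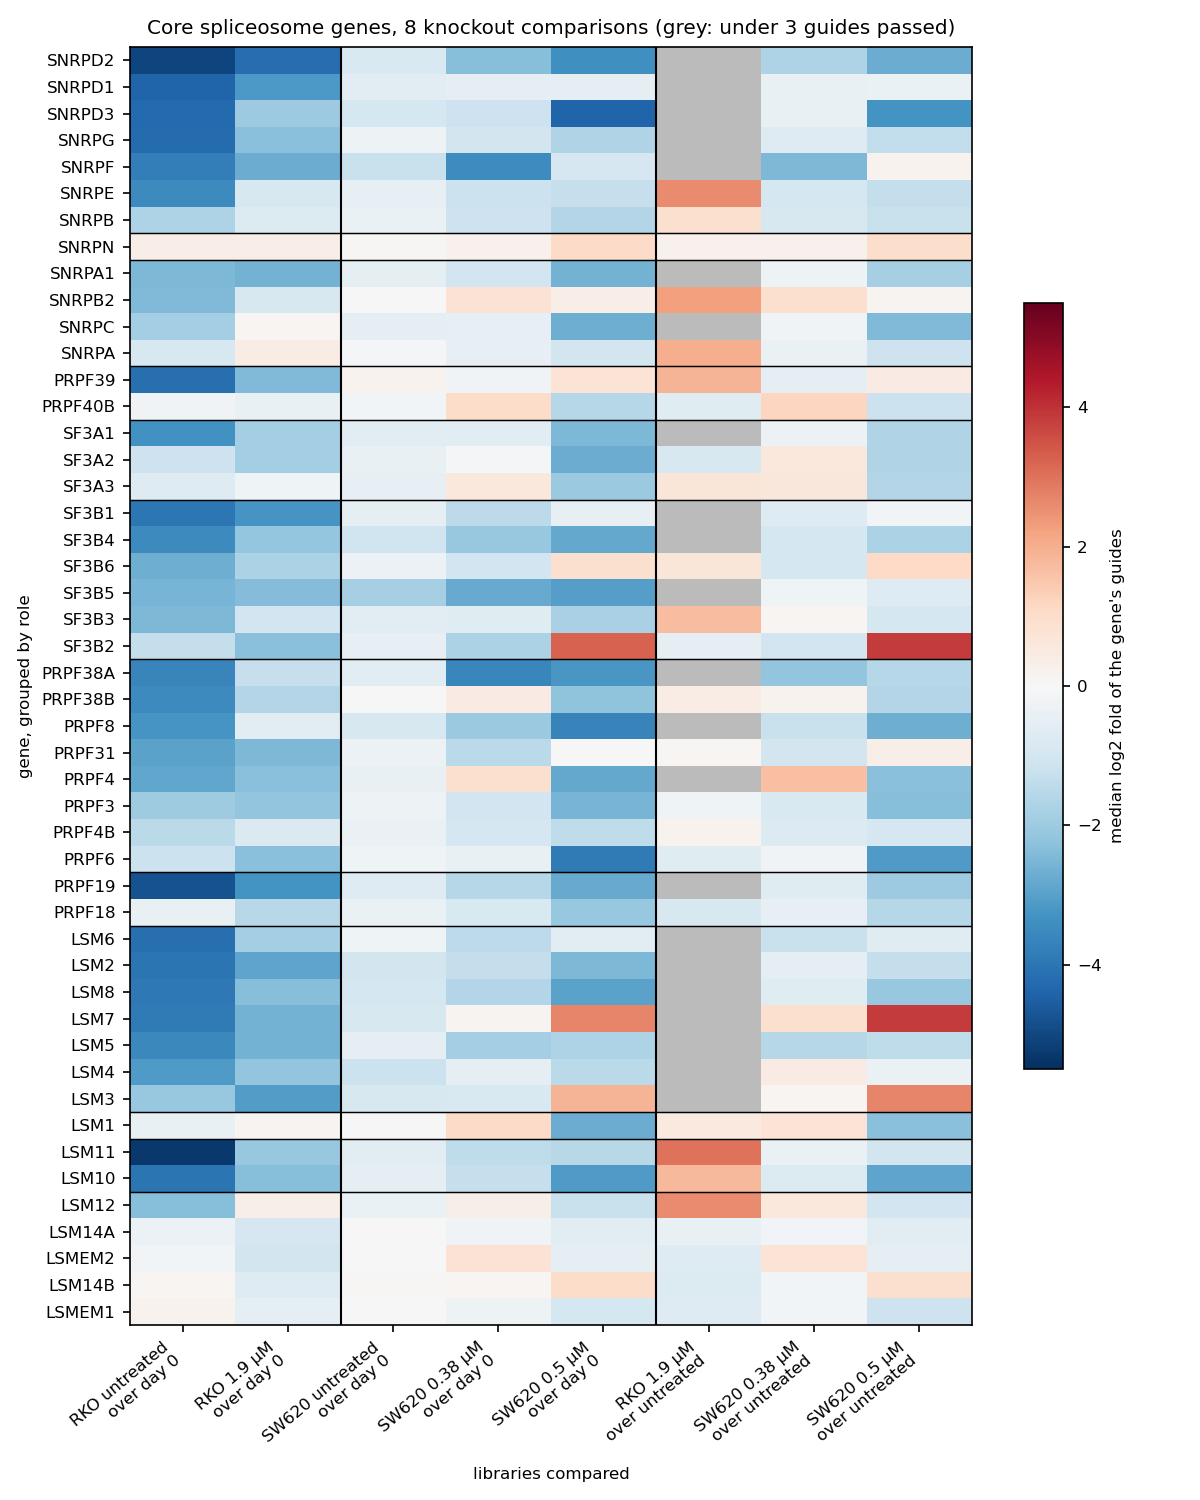
Median log2 fold of each gene's guides in 8 comparisons of knockout libraries (columns) for 48 of the 49 genes grouped by role (rows). Blue is lower and red higher in the first-named library, and grey cells had under 3 guides past the count filter; 22 genes are grey for RKO at 1.9 µM over untreated day 20.

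Set directly against untreated day 20, the RKO drug comparison is limited by how few counts were left without drug. Guides needed a mean scaled count of 20 over the 2 libraries, 22 of 49 genes kept under 3 guides, and a gene could pass through the treated library alone. Among the 27 tested, 0 were lower (7.90% of all genes) and 8 were higher by 1 or more (11.4%): LSM11 at 2.99, SNRPE at 2.61, LSM12 at 2.60, SNRPB2 at 2.27, SNRPA at 2.00, PRPF39 at 1.87, LSM10 at 1.79 and SF3B3 at 1.70. Because of that filter these counts support no statement about the group. Guides were also filtered on the untreated library alone, a setting added after the values had been seen. Then 20 genes were tested, 1 was lower (8.25% of all genes) and 2 were higher (9.45%), with a median of -0.31.

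All 4 guides of LSM11 and of LSM12 were higher with drug than without it. The LSM11 guides had 154, 132, 199 and 72.4 scaled counts with oxaliplatin, against 24.8, 6.56, 0 and 14.6 without it at day 20; all 4 were still below their day 0 counts. Only 1 of these 4 guides had 20 or more scaled counts without drug, and the other 3 passed the filter through the treated library. The LSM12 guides had 318, 113, 1111 and 839 with oxaliplatin, against 83.1, 53.2, 69.2 and 78.7 without it, and 2 of them were above day 0; all 4 had 20 or more without drug. LSM12 was at 0.33 over day 0 and LSM11 at -2.07. Single non-targeting guides spread from -1.18 to 1.96 in this comparison (5th to 95th percentile), which was wider than in untreated growth.

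In SW620 at 0.38 µM against untreated day 20, 8 of 49 genes were lower by 1 or more (8.56% of all genes) and 2 were higher (4.98%), with a member median of -0.37 beside 0.04 over all genes. The lowest were SNRPF at -2.47, PRPF38A at -2.18, SNRPD2 at -1.71, LSM5 at -1.55, LSM6 at -1.21 and PRPF8 at -1.21. SNRPF guides had 120, 161, 5.92 and 0 scaled counts at 0.38 µM, against 212, 354, 185 and 66.2 untreated, so all 4 were lower. PRPF4 at 1.67 and PRPF40B at 1.20 were the 2 higher genes; the PRPF4 guides had 812, 610, 188 and 993 at 0.38 µM, against 248, 368, 56.6 and 305 untreated. Counts depended on the scaling: with non-targeting guides as the standard 16 genes were lower and 1 higher (15.1 and 1.66% of all genes), and with total counts 19 and 1 (18.7 and 1.05%). With counts summed over a gene's guides in place of the median guide, 4 were lower and 7 higher. For summed guides the share of all genes was not computed, so these 2 counts have no background beside them.

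At 0.5 µM the spread of all guides was much wider, and 28 of 49 genes were lower by 1 or more than untreated day 20, against 30.4% of all genes, while 4 were higher (25.1%). The member median was -1.19, beside -0.09 over all genes. The lowest were SNRPD3 at -3.29, PRPF6 at -3.11, LSM10 at -2.88, SNRPD2 at -2.71, PRPF8 at -2.70 and SNRPC at -2.44. LSM10 was lower in all 4 guides, with 26, 52, 70.2 and 7.8 scaled counts at 0.5 µM, against 275, 211, 444 and 216 untreated. PRPF6 had 18.2, 5.2, 442 and 15.6 at 0.5 µM, against 313, 272, 253 and 107 untreated, with 1 guide higher among 3 that were nearly lost.

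The members' counts at 0.5 µM reversed with the way guides were combined. With counts summed over a gene's guides, 5 genes were lower and 21 were higher, and single guides reached very high counts. The share of all genes was not computed for summed guides, so the reversal cannot be read as particular to these genes. An SNRPN guide had 53824 scaled counts at 0.5 µM, against 1226 untreated, and a PRPF39 guide had 19080, against 624. Single non-targeting guides had a standard deviation of 1.91 and lay between -2.68 and 3.63 (5th to 95th percentile). Other scalings shifted all genes down along with the members. By TMM 35 members were lower and 3 higher (39 and 16.7% of all genes), by non-targeting guides 39 and 3 (51.2 and 8.43%), and by total counts 45 and 2 (76.4 and 1.28%).

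The 4 genes higher at 0.5 µM were LSM7 at 3.85, SF3B2 at 3.83, LSM3 at 2.68 and SF3B6 at 1.08. SF3B2 had 279, 499, 509 and 75.1 scaled counts untreated, 104, 216, 599 and 38 at 0.38 µM, and 4101, 5773, 7167 and 1446 at 0.5 µM. All 4 guides were thus higher at 0.5 µM, within a narrow range of 3.52 to 4.18, while 3 of 4 were lower at 0.38 µM. LSM3 guides had 238, 29.9, 88.1 and 313 untreated, 380, 2.54, 96.4 and 274 at 0.38 µM, and 5570, 78, 1129 and 1064 at 0.5 µM, again with every guide higher at the upper dose. LSM7 guides had 275, 182, 270 and 96.1 untreated, 725, 1064, 359 and 49.9 at 0.38 µM, and 28.6, 3651, 14605 and 1077 at 0.5 µM, so 1 of its 4 guides went the other way.

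Over both lines the oxaliplatin guide test was edgeR's quasi-likelihood test with the line as a block and both SW620 doses counted as treated. It called 0 of 75692 guides lower (0%) and 0 higher (0%), with 2 residual degrees of freedom. At an unadjusted p below 0.05 it had 128 lower and 348 higher, among them 1 and 5 of 188 member guides. DESeq2 called 0 lower and 14 higher, of which 0 were member guides. Among the other spliceosome genes at 0.38 µM 15 of 78 were lower (8.56% of all genes) and 2 higher (4.98%), SNRNP200 at -3.72 being the lowest and XAB2 at 1.13 the highest. At 0.5 µM 35 were lower (30.4%) and 21 higher (25.1%), with RBM8A at -2.77 the lowest and SNW1 at 4.16 the highest.

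Activation of the same genes without drug left their guides close to where they started. Of 47 genes with 2 or more guides (SF3B3 had 1), 1 was lower by 1 or more in RKO, against 0.724% of all genes, and 0 were higher (0%). In SW620 0 were lower (0.389%) and 0 higher (0%). The medians over members were 0.04 in RKO and 0.00 in SW620, log2 folds of day 20 over day 0. The gene past the threshold was LSM1 in RKO at -1.08, with 67.3, 315 and 131 scaled counts at day 20, against 247, 332 and 283 at day 0, where 1 guide was nearly unchanged. In SW620 LSM1 was the highest member at 0.52 and PRPF19 the lowest at -0.82. Guides of the activation libraries carry different numbers in the tables of the lines, so single guides could not be matched between them.

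**Figure D4:**
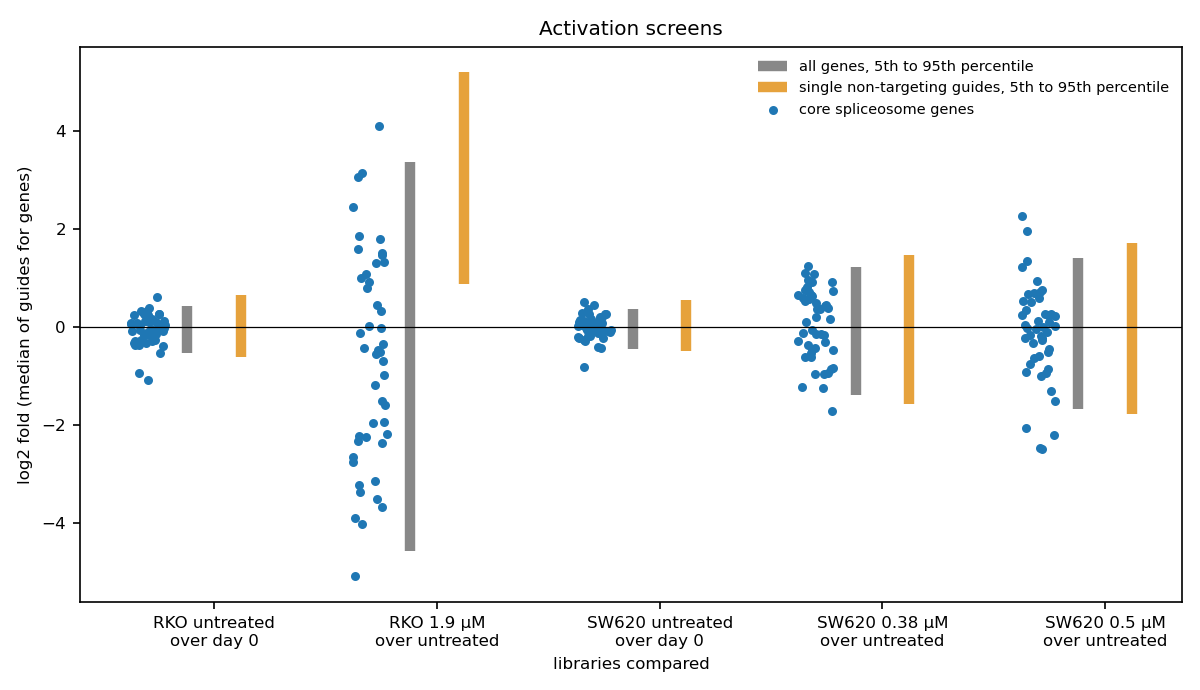
Log2 folds in the activation screens by comparison (x axis). Blue points are the medians over guides of the 47 genes, grey bars span the 5th to 95th percentile of all gene medians and orange bars that of single non-targeting guides; the points follow the grey bars, and in RKO at 1.9 µM the orange bar lies above 0.

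Under oxaliplatin the activation screens spread widely, and the shares of members past the threshold were near those of all genes or below them. In RKO at 1.9 µM 20 of 47 were lower by 1 or more (47.2% of all genes) and 13 higher (25.9%), with a median of -0.52 beside -0.80 over all genes and 2.25 over non-targeting guides. That treated library had a median of 21 counts per guide, so 1 count was worth about 7.15 scaled counts. The split moved with the scaling, for members and for all genes. It was 27 lower and 6 higher by TMM (57 and 17.8% of all genes), 36 and 1 by non-targeting guides (76 and 5.97%), 44 and 0 by total counts (90.2 and 1.41%), and 17 and 17 by the authors' normalized table (36.8 and 35.6%). The lowest were SNRPB at -5.10, PRPF31 at -4.03, LSM4 at -3.91, PRPF3 at -3.67, SNRPD3 at -3.51 and PRPF38A at -3.37. Among the highest were LSM1 at 4.11, LSMEM1 at 3.15, SF3A1 at 2.45, LSM14B at 1.87 and SF3B6 at 1.81. SNRPB had 0, 0 and 551 scaled counts with oxaliplatin, against 276, 167 and 307 without it, so its median rested on 2 guides at 0 and the third was higher. LSM1 had 7.15, 67007 and 2347, against 67.3, 315 and 131, so 1 of 3 guides held nearly all of its counts.

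In SW620 activation cells 3 of 47 genes were lower at 0.38 µM (10.8% of all genes) and 3 higher (8.78%). LSM5 at -1.71, PRPF4 at -1.24 and LSMEM1 at -1.23 were the lower ones, and LSM7 at 1.25, PRPF18 at 1.11 and SNRPC at 1.08 the higher ones. At 0.5 µM 7 were lower (15.1%) and 4 higher (12.4%), led by PRPF18 at -2.49, SNRPD3 at -2.47, SF3B4 at -2.20, SF3B5 at -2.06, SNRPF at -1.51 and LSM1 at -1.31 below, and by SNRPC at 2.26, SNRPD2 at 1.96, SNRPD1 at 1.35 and SF3A1 at 1.22 above. SNRPC was higher at both doses: its guides had 90.1, 98.8 and 177 scaled counts untreated, 99.4, 215 and 837 at 0.38 µM, and 49, 493 and 2367 at 0.5 µM, so 2 of 3 guides were higher at the upper dose. PRPF18 was at 1.11 at the lower dose and at -2.49 at the higher one. With total counts as the scaling, 8 were lower and 0 higher at 0.38 µM (20 and 3.53% of all genes), and 13 and 2 at 0.5 µM (29.9 and 3.86%).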

How the data were processed

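For each screen the authors deposited raw counts per guide and a normalized signal. Every signal column was found to equal its deposited count column multiplied by 1 factor, whose origin no source used here gives. Multiplied by the median-ratio size factor computed here, it was between 0.9944 and 1.022 in both knockout screens and SW620 activation. The factor was thus close to the inverse of that size factor there. In RKO activation the product was 0.8396 at day 0, 0.8632 at untreated day 20 and 1.489 with oxaliplatin. The tools named by the labels, per the submitters' processing notes, are MAGeCK 0.5.7 and cutadapt 4.0, with no roles given. The files name no genome build and hold no guide sequences, so no coordinates or sequences are printed.

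From the counts, median-ratio size factors were computed within each screen (Python 3.11.15, numpy 2.4.6, pandas 2.3.3, scipy 1.17.1). Log2 folds per guide were computed from the deposited counts after scaling, with a pseudocount of 5, for guides with a mean scaled count of 20 in the 2 libraries. Gene values are medians over at least 3 guides (knockout) or 2 (activation), described as past the fold at 1. A fold with a pseudocount understates changes of low guides. Floors are 3 counts, and cover counting error only, since PCR reads are not independent molecules. The guide tests used edgeR 4.0.16 and DESeq2 1.42.0 in R 4.3.3, called below an adjusted p of 0.05. The edgeR tests were also run on simulated counts in which each changed guide had the same fold in both lines. In untreated knockout growth the members differed between the lines by a median of -2.36, a case that these runs do not cover. With 1 or 2 residual degrees of freedom, a count of 0 does not show that no guide changed. The replicates of the guide tests are the 2 lines, not cultures. In the oxaliplatin test both SW620 doses counted as treated, so they also acted as replicates of each other.

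The genes, their roles, the list of other spliceosome factors and the tests were chosen with earlier results of these data known. Results for 1 member are not reported here by name, though it is in the counts. Genes named are the other members in untreated knockout growth, in guide detail the lowest and highest of each role, fixed pairs of relatives, and up to 6 members per direction past the fold elsewhere, with up to 4 other spliceosome genes. SF3B2, LSM3 and the guides with the highest counts at 0.5 µM were detailed after their values were seen. Alternatives were the scaling, pseudocount, filter, fold and summing of guides. No columns were left without a sample (0).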

Additional observations from a re-analysis of the deposited data

Results flagged for a closer look

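In 6 cases a gene's median under oxaliplatin lay on one side of 0 in RKO and on the other at both SW620 doses, by at least 1 in RKO and 0.5 in SW620, a minimum chosen after the values had been seen. Each condition is 1 library and the doses differ between lines, so the difference was not tested. In the knockout screens LSM10 was at 1.79 in RKO at 1.9 µM, and at -0.74 and -2.88 in SW620 at 0.38 and 0.5 µM. SNRPE was at 2.61 in RKO, and at -0.98 and -1.30 in SW620. Untreated RKO cells had 13.1, 6.56, 35 and 3.64 scaled counts of the LSM10 guides, and 9.47, 33.5, 72.9 and 0 of the SNRPE guides. Of 3 tested guides each, 1 of LSM10 and 2 of SNRPE had 20 or more there, so both genes reached 3 guides only through the treated library. The RKO values of both genes rest on few untreated counts and support no difference between the lines. The part of the filter in them was not tested.

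In the activation screens LSM1 was at 4.11 in RKO, and at -0.97 and -1.31 in SW620. SNRPC was at -2.34 in RKO, and at 1.08 and 2.26 in SW620. SNRPD1 was at -2.25 in RKO, and at 0.75 and 1.35 in SW620, and SNRPE was at -3.22 in RKO, and at 0.71 and 0.94 in SW620. In each of these 4 genes the 3 RKO guides did not all move one way.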

How the results depend on the processing

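In all 21 counts of genes or guides were recomputed, giving 175 alternative values, of which 126 stayed within 1.5 times and 49 moved. Equal values counted as stayed also where both were 0, as in most of the guide tests, so the 126 include counts that could hardly move. The RKO knockout growth count and the line difference were among those that stayed. The SW620 knockout growth count of 5 (1.20% of all genes) became 11 with non-targeting guides as the scaling (2.88%). It was 0 at a fold of 2. The member guides DESeq2 called were 9 of 194 (1.19% of all targeting guides), against 0 by edgeR. Percentages in brackets below are shares of all genes. They were not computed for a fold of 2 or for summed guides. Non-targeting scaling put the median of all genes at -0.41 in RKO growth and -0.23 in SW620 growth, with the members at -3.18 and -0.71. For RKO knockout under oxaliplatin (0 lower, 8 higher) the counts were 2 of 26 lower by non-targeting scaling (13.4%). By total counts 14 of 24 were lower and 3 higher (64.4 and 1.14%). With no filter they were 1 and 24 of 49 (7.35 and 12.6%). They were 5 higher at a fold of 2 and 1 lower with summed guides. Filtered on the untreated library alone, an alternative added after seeing the data, they were 1 and 2 of 20 (8.25 and 9.45%). For SW620 knockout at 0.38 µM (8 and 2) they were 16 and 1 by non-targeting guides (15.1 and 1.66%) and 19 and 1 by total counts (18.7 and 1.05%). At a fold of 2 they were 2 and 0, and with summed guides 4 and 7. For SW620 knockout at 0.5 µM (28 and 4) they were 45 and 2 by total counts (76.4 and 1.28%), 11 lower at a fold of 2, and 5 and 21 with summed guides. In activation the RKO growth count of 1 was 2 by non-targeting (1.05%) and by total-count scaling (0.895%), and 0 at a fold of 2 and with summed guides. RKO oxaliplatin (20 and 13) gave 6 higher by TMM (17.8%), 36 and 1 by non-targeting guides (76 and 5.97%), and 44 and 0 by total counts (90.2 and 1.41%). It gave 4 higher at a fold of 2, and 12 and 23 with summed guides. SW620 activation at 0.38 µM (3 and 3) gave 8 and 0 by total counts (20 and 3.53%), 0 and 0 at a fold of 2, and 1 and 9 with summed guides. At 0.5 µM (7 and 4) it gave 13 and 2 (29.9 and 3.86%), 4 and 1, and 2 and 10 in the same order. The cause was not tested. No paired analysis was possible for the fold counts because each condition is 1 library; the guide tests hold the line as a block. No replicate within a condition could be left out. The oxaliplatin guide test with edgeR called 0 member guides at either SW620 dose alone as with both. At an unadjusted p below 0.05 it had 1 lower and 9 higher of 190 member guides with 0.38 µM only. Of all 75762 targeting guides 873 were lower and 1460 higher there. With 0.5 µM only it had 0 and 8 of 182 member guides, beside 232 and 367 of 75538 targeting guides. With both doses it had 1 and 5 of 188, beside 128 and 348 of 75692. Depth limits the treated RKO activation library most, at a median of 21 counts per guide.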
